A study of Drosophila melanogaster with 33 samples.

Results

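The comparison set the midgut of Drosophila melanogaster prepupae at 3, 4 and 5 h after puparium formation (APF), pooled, against the midgut of larvae of the last instar at 18 h before puparium formation (BPF). Its members were 12 of the 33 arrays in a time course of 11 stages, with 9 arrays in the prepupal group, 3 for each hour, and 3 arrays in the larval group. Per the labels, replicate arrays came from independent samples. All animals were of the Canton S strain, with no transgene, mutation or treatment named in the labels. Each array set amplified midgut RNA of 1 stage against a reference pooled from midguts of 10 of the stages, and a level below is the log2 ratio of stage to reference for 1 probe. A probe was tested if it had at least 6 values at 3 to 5 h APF and at least 2 at 18 h BPF. Of 14064 probes with any value 11210 were tested, and these held 8026 named genes.

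The larval midgut is a digestive tube of large polyploid enterocytes, with small nests of diploid adult progenitors and scattered hormone-producing cells, wrapped in visceral muscle. The late larval pulse of the steroid 20-hydroxyecdysone, which acts through the receptor EcR and its partner usp, starts its replacement. The progenitors then divide and join into a new epithelium, and the larval epithelium is pushed into the lumen and destroyed by a programme that needs autophagy. Prepupae have stopped feeding, so the comparison spans the end of digestion as well as the replacement of the tissue.

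Between 9893 and 13565 probes had a value on the 3 to 5 h APF arrays, and between 9780 and 13966 on the 18 h BPF arrays. By the letter of the array, a, b or c, they numbered 9780 to 10447, 10455 to 11566 and 12915 to 13966. Log2 ratios were spread most widely on the larval a array, with an SD of 0.82, against 0.62 on b and 0.50 on c. Across probes, arrays of the same hour within the prepupal group correlated at 0.680 to 0.788 and the larval arrays with each other at 0.727 to 0.772. Every one of the 27 pairs of a prepupal and a larval array correlated below -0.3, at -0.508 to -0.347. The direction of the ratios was kept because the labels give the stage sample as Cy5 and the reference as Cy3, and because the reversed sign fits the make-up of the reference less well. If the reference was mixed evenly, a gene expressed at 1 of its 10 stages alone could not exceed 3.32 on the log2 scale. These array values hold no intensities, so distance from background was not tested, and precision is limited by how many arrays there are.

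The expression profile differed widely between the groups. Of 11210 probes 3020 passed the threshold of an adjusted p of 0.05 (26.9%), with 1914 higher at 3 to 5 h APF (17.1%) and 1106 lower (9.87%). The falls were larger: the median change was -1.23 among called lower probes and 0.85 among called higher ones, and 0.05 over all probes tested. At least 8-fold changes were made up of 228 lower probes (2.03% of those tested) and 25 higher ones (0.223%). The highest prepupal array lay below the lowest larval one, for 1144 probes (10.2%), and the lowest prepupal array lay above the highest larval one for 1721 (15.4%). Counted with 1 probe per gene, 2285 of 8026 genes were called (28.5%), of which 1435 were higher (17.9%) and 850 lower (10.6%). Each array carries a letter, a, b or c, whose meaning the labels do not give. The change had 1 sign in all letters measured for 97.7% of called probes and for 44.8% of those not called. The same arrays decided the calls, so these shares describe the calls and are no independent support for them. The 3, 4 and 5 h arrays of 1 letter deviated together from the means of their hours. Averaging them by letter, a setting added after the data were seen, gave 2061 calls. The main fit counted the prepupal arrays as separate replicates, so its errors and p-values may be too small.

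The genes that fell furthest mostly encode secreted digestive and lumenal proteins. CG6839, of a family of non-specific DNA and RNA nucleases, had a lowest log2 ratio of -5.39, a median of -4.50 and a highest of -3.94 over the 9 prepupal arrays, against 3.58, 3.60 and 2.98 on the larval arrays. Its change was -8.05 (SE 0.41, adjusted p = 1.47e-15), or 265-fold lower. Of the larval values, 2 lie above the 3.32 that even mixing allows for a gene expressed at 1 stage, and 1 lies below it. CG3819, of the same nuclease family, changed by -7.83 (SE 0.34). CG6933 and CG7290, which carry chitin-binding domains of the peritrophin type, changed by -7.76 (SE 0.37) and -7.06 (SE 0.38). The log2 ratio of CG6933 spanned -5.40 to -3.72 at 3 to 5 h APF, with a median of -4.66, against 3.47, 3.08 and 2.68 at 18 h BPF. CG33307 changed by -7.66 (SE 0.48) and CG17633, a predicted zinc carboxypeptidase, by -6.91 (SE 0.74). The remaining 6 of the 12 largest falls were trypsin and Jonah proteases. The smallest gap between a prepupal and a larval array of 1 gene among these 12 was 4.80 on the log2 scale, in betaTry, as the plot of every array shows.

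**Figure D1:**
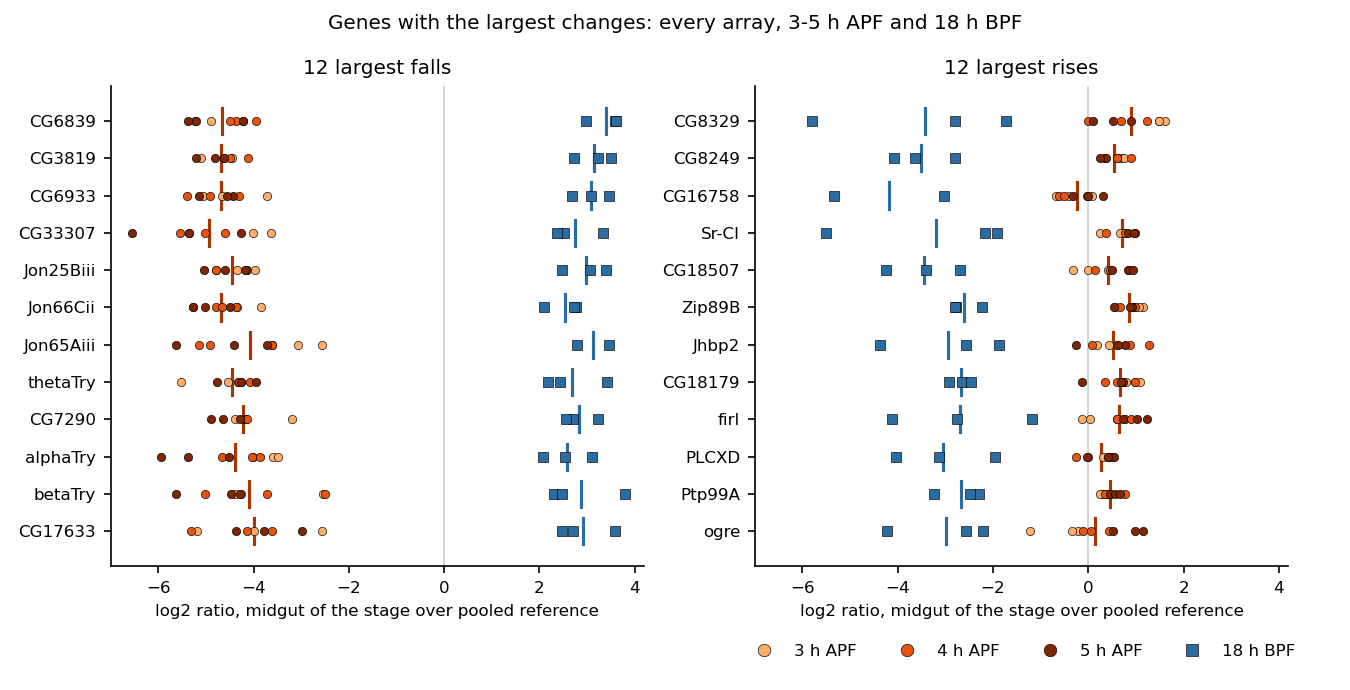
Log2 ratio of stage over pooled reference (horizontal axis) on each array for the 12 named genes with the largest falls (left) and the 12 with the largest rises (right). Circles are 3, 4 and 5 h APF arrays, squares 18 h BPF arrays and vertical bars group means. For CG6839 the prepupal arrays sit between -5.39 and -3.94 and the larval arrays between 2.98 and 3.60. For CG8329 the larval arrays are spread from -5.80 to -1.72.

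Trypsins and Jonah proteases are the serine endopeptidases that enterocytes secrete to digest food protein. Of 30 tested, 29 fell, none rose, and the median change was -5.50, against 0.06 over all named genes tested. For the counts of this list and those below, the shares over all named genes tested were 17.9% higher and 10.6% lower. Jon25Biii had log2 ratios of -5.04 to -3.96 at 3 to 5 h APF, with a median of -4.35, against 3.40, 3.07 and 2.47 at 18 h BPF. Its change was -7.42 (SE 0.44, adjusted p = 9.86e-14). The Jonah genes Jon66Cii and Jon65Aiii both changed by -7.20, with SEs of 0.41 and 0.86, and Jon65Aiii had no value on the larval b array. Among trypsins, thetaTry changed by -7.12 (SE 0.41), alphaTry by -6.96 (SE 0.45) and betaTry by -6.95 (SE 0.63). alphaTry held log2 ratios between -5.95 and -3.49 in prepupae, with a median of -4.04, against 3.11, 2.54 and 2.07 in larvae. The family was not uniform, since the smallest fall was -0.95 and the single member that missed the threshold had a change of -2.42. Many of these genes are near-copies in clusters, and cross-hybridisation between them was not tested. In bulk tissue, fewer cells of a type and less RNA per cell cannot be told apart.

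Lipases and lysozymes moved the same way, in 14 of 16 tested members, with a median change of -4.59. mag, a secreted gut lipase that digests dietary fat, had log2 ratios of -4.82 to -2.15 in prepupae, with a median of -3.74, against 3.00 and 2.20 on the 2 larval arrays with a value. It changed by -6.27 (SE 0.54, adjusted p = 1.77e-10). The predicted lipases CG6296 and CG6283 changed by -6.48 (SE 0.61) and -5.42 (SE 0.58), and a second probe of CG6283, also called, by -3.90. LysX was the exception among the lysozymes. It stood between 0.05 and 0.44 on 6 prepupal arrays, against -1.79 and -1.45 on 2 larval arrays, a rise of 1.86 (SE 0.17, adjusted p = 3.76e-08).

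Carbohydrate-digesting enzymes split. Of 18 tested maltases, amylases and related sugar enzymes, 9 fell and 2 rose, with a median change of -1.30. Amy-d, a starch-cleaving amylase, changed by -5.80 (SE 1.09, adjusted p = 1.26e-04), and the median of its prepupal log2 ratios was -3.15, against 3.01 and 1.61 on 2 larval arrays. The alpha-mannosidases LManV and LManVI changed by -5.16 (SE 0.60) and -3.75 (SE 0.39). Their second probes, also called, gave -3.81 and -5.37. The members that rose were Gal, a beta-galactosidase, by 2.52 (SE 0.37, adjusted p = 3.52e-06), and tobi, an alpha-glucosidase controlled by insulin and glucagon-like signals, by 1.84 (SE 0.27). On 8 of the 9 prepupal arrays tobi lay between -0.70 and -0.07, against -2.26, -2.11 and -1.82 in larvae.

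The peritrophic matrix is the chitin sheath that separates food from the epithelium, and its genes divided evenly, with 4 of 13 lower and 4 higher. Those that fell included structural and mucin-like proteins. Peritrophin-15a had log2 ratios of -4.37 to -0.87 in prepupae, with a median of -2.46, against 2.89, 2.32 and 1.92 in larvae, a change of -4.88 (SE 0.54, adjusted p = 2.01e-08). Muc55B, a mucin, changed by -5.25 (SE 0.50) and Cda9, a chitin deacetylase, by -4.60 (SE 0.84). Those that rose included both a chitin-degrading and a chitin-making enzyme. Cht4, a chitinase, rose by 2.47 (SE 0.34, adjusted p = 1.22e-06). Chs2, the chitin synthase of the midgut, rose by 1.66 (SE 0.28, adjusted p = 2.40e-05), with -1.66 to -0.18 in prepupae against -3.03, -2.34 and -2.02 in larvae. Gasp, another chitin-binding protein, rose by 1.24 (SE 0.18).

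Antimicrobial and peptidoglycan recognition genes serve gut immunity. Of 12 tested 3 were lower, 1 was higher and 8 were not called, with a median of -0.23. PGRP-SC2, an amidase that breaks peptidoglycan down, changed by -5.64 (SE 0.33, adjusted p = 2.85e-14), with log2 ratios of -4.32 to -3.21 in prepupae against 2.53, 1.45 and 1.62 in larvae. The amidase PGRP-LB changed by -1.88 (SE 0.34), and pirk, an intracellular inhibitor of the Imd pathway, by -1.95 (SE 0.20, adjusted p = 5.12e-09). PGRP-LA rose by 0.99 (SE 0.22).

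Cytochrome P450 genes, which oxidise steroids, plant toxins and other foreign compounds, were among the families with most falls. Of 49 tested 26 fell and 4 rose, and the median change was -0.87. Cyp9f2 changed by -5.15 (SE 0.25, adjusted p = 1.51e-15), or by -2.99 on its second probe, also called, and Cyp6w1 was 32.0-fold lower. Enzymes at the 2 ends of ecdysone metabolism moved in opposite directions. shd, the enzyme that makes 20-hydroxyecdysone from ecdysone in peripheral tissues, had log2 ratios of -4.56 to -1.77 in prepupae, with a median of -2.61, against 2.78, 2.12 and 1.81 in larvae. It changed by -5.09 (SE 0.50, adjusted p = 1.87e-09), or 34.0-fold lower. Cyp18a1, which inactivates 20-hydroxyecdysone, had -0.57 to 0.69 in prepupae, with a median of 0.17, against -3.13, -0.62 and -1.21 in larvae. Its rise was 1.76 (SE 0.35, adjusted p = 2.05e-04), and 1.03 without the larval a array (adjusted p = 0.020).

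Glutathione transferases, which conjugate oxidised and foreign molecules, went mainly the other way, with 9 of 24 higher, 3 lower and a median of 0.43. GstD1 had log2 ratios of 0.17 to 1.03 in prepupae, with a median of 0.40, against -2.17, -2.14 and -1.26 in larvae, a rise of 2.27 (SE 0.24, adjusted p = 5.06e-09). GstT3 rose by 1.95 (SE 0.20) and GstD5 by 1.84 (SE 0.33). GstT4, of the same theta class as GstT3, changed by -2.65 (SE 0.26, adjusted p = 4.21e-09).

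Lipid and sterol genes fell in 7 of 19 cases and rose in 3, with a median of -0.20. Npc2d, of a secreted family that binds sterols and other lipids, changed by -6.59 (SE 0.45, adjusted p = 1.15e-12), while Npc2a, the member that exports cholesterol from lysosomes, rose by 1.76 (SE 0.24, adjusted p = 1.04e-06). The 2 routes of the last step of triglyceride synthesis differed in the same way. Dgat2 changed by -2.10 (SE 0.44) and mdy, the DGAT1 enzyme, by 1.31 (SE 0.28). Agpat2, an acyltransferase of phospholipid and triglyceride synthesis, rose by 2.18 (SE 0.34, adjusted p = 6.05e-06). Its log2 ratio averaged 0.64, -0.48 and -1.06 at 3, 4 and 5 h APF, against -2.18, -2.47 and -2.79 on the larval arrays.

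Transporters also moved both ways, with 8 of 20 sugar and amino acid transporters higher, 3 lower and a median of 0.28. NAAT1, which takes up essential amino acids from the gut lumen, changed by -2.90 (SE 0.26, adjusted p = 1.65e-08), with -1.16 to -0.46 on 6 prepupal arrays against 2.49, 1.90 and 2.08 in larvae. CG8249, of the sugar transporter family, had log2 ratios of 0.24 to 0.89 in prepupae, with a median of 0.60, against -4.08, -3.64 and -2.80 in larvae. Its rise of 4.04 (SE 0.19, adjusted p = 7.22e-16) had the smallest error of the 12 largest rises, and bdg, of the neurotransmitter transporter family, rose by 1.78 (SE 0.22). The V-ATPase pumps protons into the lysosome and into an acid zone of the larval gut. Of its 20 tested subunits 5 fell and none rose, with a median of -0.26. Vha100-4 and Vha100-5, alternative forms of the membrane subunit a, changed by -1.40 (SE 0.22) and -1.23 (SE 0.22). A second probe of Vha100-4, also called, gave -2.88.

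The largest rises were smaller than the largest falls and covered mixed functions. CG8329, a predicted serine protease, rose by 4.32 (SE 0.53, adjusted p = 1.35e-07), or 20.0-fold. Its log2 ratio ran from -0.01 to 1.61 in prepupae, with a median of 0.90, against -5.80, -2.79 and -1.72 in larvae, so the size rests on 3 larval arrays that lie far apart. A second predicted serine protease, CG18179, rose by 3.35 (SE 0.23), with larval values of -2.65, -2.93 and -2.46. These proteases thus moved against the 29 trypsin and Jonah genes. CG16758, a predicted purine nucleoside phosphorylase, rose by 3.94 (SE 0.38), and all 4 of its probes were called higher. Zip89B, a zinc transporter, rose by 3.45 (SE 0.24), with 0.54 to 1.15 in prepupae against -2.78, -2.80 and -2.23 in larvae. Jhbp2, of a family that binds juvenile hormone, rose by 3.45 (SE 0.37).

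The 12 largest rises also held receptors and a junction protein. Sr-CI, a scavenger receptor that takes up bacteria in haemocytes, rose by 3.89 (SE 0.44, adjusted p = 3.84e-08), with 0.25 to 0.98 on 8 prepupal arrays against -5.50, -1.91 and -2.16 in larvae. The innexin ogre, a gap junction subunit, rose by 3.13 (SE 0.46) and Ptp99A, a receptor tyrosine phosphatase, by 3.14 (SE 0.22). Outside those 12, drpr, the receptor with which fly cells engulf dying neighbours, rose by 1.39 (SE 0.28, adjusted p = 3.47e-04), with -0.10 to 0.71 in prepupae against -1.54 and -0.59 in larvae. In the haemocyte list 2 of 10 genes rose and none fell, where 17.9% of all named genes tested rose and 10.6% fell. The haemocyte markers Hml, NimC1 and Pxn had changes of -0.21, 0.10 and 0.34 with adjusted p-values of 0.433, 0.868 and 0.429, and the mean of the 1 marker on all arrays overlapped between the groups. The part of haemocytes in the rise of Sr-CI was not tested.

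Genes of the ecdysone response were higher at 3 to 5 h APF or did not pass, and none was lower. Of 18 tested 9 rose, and the median change was 0.49, or 0.18 with the probes of a gene averaged. The receptor itself showed no call. EcR averaged -0.43 ± 0.21 in prepupae (SD, n = 6) and -0.31 ± 0.09 in larvae (SD, n = 2), a change of -0.12 (SE 0.28, adjusted p = 0.805). Its partner usp changed by -0.19 (SE 0.21, adjusted p = 0.568). Of the other nuclear receptors always to be named, Hr3, Hr78 and Hr39 were called and ftz-f1 was not. Hr3, which prepares the prepupal response, stood at -0.03 to 0.52 on 6 prepupal arrays against -1.16 and -0.71 on 2 larval ones, a rise of 1.17 (SE 0.32, adjusted p = 0.00932). With the 3, 4 and 5 h arrays averaged by letter, a setting added after the data were seen, its adjusted p was 0.0733. Hr78 rose by 0.59 (SE 0.15, adjusted p = 0.00273). Hr39 rose by 0.66 (SE 0.23, adjusted p = 0.0364), but its second probe, at 0.69, was not called. The first probe lost the call without the larval a array (adjusted p = 0.110), the larval b array (0.153), the 3 h a array (0.0585) or the 3 h b array (0.0544). The call was also lost with centred arrays (0.0508) and with arrays averaged by letter (0.118).

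Eip93F, a transcription factor that controls the destruction of larval tissues, rose by 1.63 (SE 0.42, adjusted p = 0.00320). Its log2 ratio was spread from -0.95 to 0.78 in prepupae, with a median of 0.50, against -2.20, -1.09 and -1.17 in larvae, and without the larval a array the rise was 1.27 (adjusted p = 0.0547). ken, a transcriptional repressor, rose by 1.78 (SE 0.26, adjusted p = 5.92e-06). Of the early and mid-prepupal factors, br had a change of 0.39 (SE 0.20, adjusted p = 0.148), and its second probe one of -0.19, also not called. ftz-f1, the competence factor of the mid-prepupa, averaged -0.41 ± 0.38 in prepupae (SD, n = 9) and -0.45 ± 0.35 in larvae (SD, n = 3). Its 3 probes gave changes of 0.04, 0.70 and -0.36, none of them called.

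**Figure D2:**
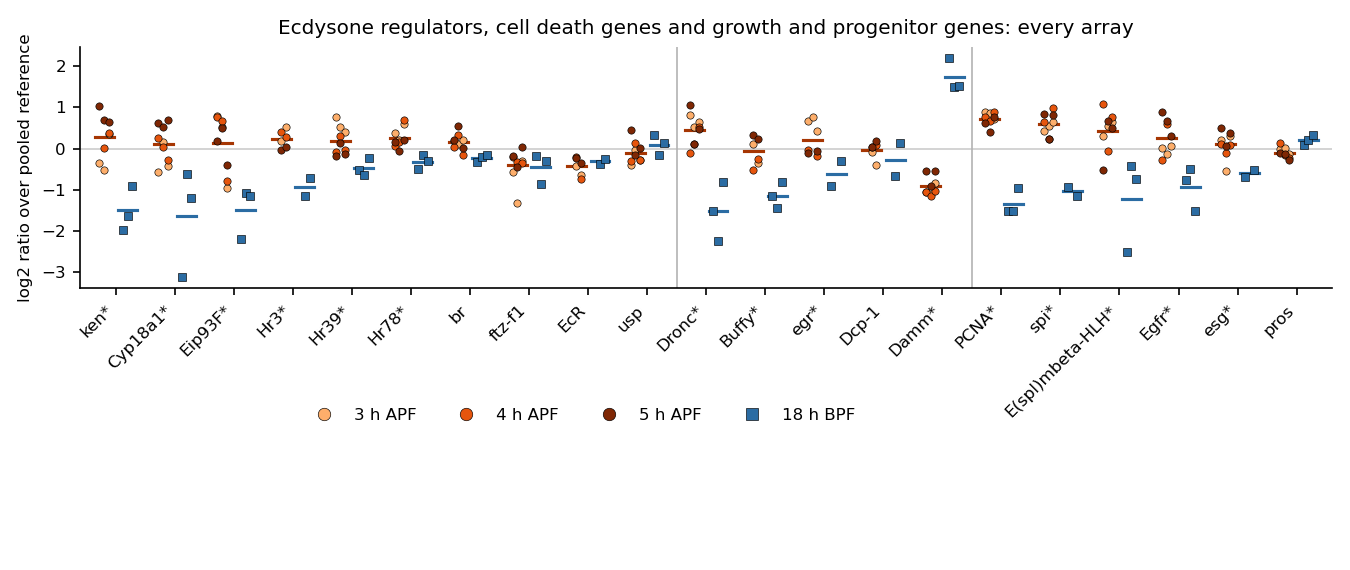
Log2 ratio of stage over pooled reference on each array for ecdysone regulators (left), cell death genes (middle) and growth and progenitor genes (right). For each gene, circles at the left are 3, 4 and 5 h APF arrays, squares at the right 18 h BPF arrays, bars are group means, and an asterisk marks an adjusted p under 0.05. Damm is the gene whose prepupal arrays, at -1.16 to -0.55, all lie below its larval arrays, which average 1.74.

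Cell death genes moved one by one. Of 10 tested 3 rose and 1 fell, with a median of 0.12. Dronc, the initiator caspase of fly apoptosis, had log2 ratios of -0.11 to 1.05 in prepupae, with a median of 0.53, against -1.52, -2.26 and -0.82 in larvae. It rose by 1.99 (SE 0.38, adjusted p = 1.36e-04), or 3.97-fold. Damm, another caspase, went the other way by -2.66 (SE 0.20, adjusted p = 4.58e-12), with -1.16 to -0.55 in prepupae against a larval mean of 1.74 ± 0.40 (SD, n = 3). Its second probe, also called, gave a smaller fall of -1.34. The effector caspase Dcp-1 had a change of 0.25 (SE 0.20, adjusted p = 0.422). Buffy, a Bcl-2 family protein, rose by 1.07 (SE 0.24, adjusted p = 0.00152) and egr, the fly tumour necrosis factor ligand, by 0.82 (SE 0.23, adjusted p = 0.00873).

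Autophagy genes, needed for the removal of the larval midgut, rose in 7 of 22 cases and fell in 2, with a median of 0.41. Atg2 rose by 1.20 (SE 0.19, adjusted p = 1.47e-05), with 0.05 to 1.02 in prepupae against -0.72 and -0.75 on 2 larval arrays. Atg7, which activates the ubiquitin-like Atg proteins, rose by 1.15 (SE 0.22, adjusted p = 3.09e-04). ref(2)P, the p62 cargo receptor that autophagy itself degrades as a protein, changed by -0.90 (SE 0.18, adjusted p = 2.68e-04) at the RNA level. Lysosomal genes were called in 9 of 13 cases but in both directions, 6 higher and 3 lower. Cln3, a lysosomal membrane protein, rose by 2.49 (SE 0.21, adjusted p = 1.28e-10), with 0.24 to 0.99 in prepupae against -1.83, -1.90 and -1.84 in larvae. CtsK1, a cysteine protease, rose by 2.10 (SE 0.19). The aspartyl protease cathD changed by -1.39 (SE 0.20) and the cysteine protease CtsB by -0.88 (SE 0.19), so proteases of the same organelle moved in both directions.

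The list of progenitor genes, which covers the adult progenitors and the signals that drive them, had the highest median of the 32 lists, at 0.96, with 7 of 11 members higher and none lower. spi, a ligand of the EGF receptor that drives progenitor division, stood at 0.22 to 0.99 in prepupae, with a median of 0.64, against -0.93 and -1.15 on 2 larval arrays, a rise of 1.63 (SE 0.18, adjusted p = 3.55e-08). Its receptor Egfr rose by 1.19 (SE 0.35, adjusted p = 0.0105), and by 0.893 without the larval c array (adjusted p = 0.103), and its adjusted p was 0.0571 with arrays averaged by letter. The Notch targets E(spl)m3-HLH and E(spl)mbeta-HLH rose by 1.26 (SE 0.24) and 1.66 (SE 0.37), while a second probe of E(spl)m3-HLH, at 0.50, was not called. Without the larval a array the rise of E(spl)mbeta-HLH was 1.02 (adjusted p = 0.0516). Dad, an inhibitor and target of Dpp signalling, rose by 0.99 (SE 0.18, adjusted p = 6.31e-05). In the list of EGFR, JNK and Notch signals 4 of 17 rose and none fell, against 17.9% and 10.6% over all named genes tested. Of the 2 tested markers of the progenitors themselves, esg rose by 0.72 (SE 0.26, adjusted p = 0.0364), with overlapping groups, -0.55 to 0.50 in prepupae against -0.69 and -0.52 in larvae. Without the 5 h a array its adjusted p was 0.0530, and with the 3, 4 and 5 h arrays averaged by letter it was 0.109. The other marker, Sox100B, had a change of -0.45 (SE 0.21, adjusted p = 0.109).

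Replication genes were higher in 5 of 17 cases and lower in none, with a median of 0.29. PCNA, the sliding clamp of DNA polymerase, had log2 ratios of 0.40 to 0.90 in prepupae, with a median of 0.76, against -1.53, -1.52 and -0.97 in larvae. It rose by 2.07 (SE 0.23, adjusted p = 1.57e-08). RnrL, the large subunit of ribonucleotide reductase, rose by 1.11 (SE 0.18) and Mcm5, a subunit of the replicative helicase, by 0.69 (SE 0.15). Larval enterocytes replicate DNA without dividing, so these genes are not specific to dividing cells. Basement membrane genes rose in 3 of 10 cases, with a median of 0.69. trol, the heparan sulphate proteoglycan perlecan, rose by 1.17 (SE 0.26), wb, a laminin alpha chain, by 1.04 (SE 0.22) and Mmp2, a metalloprotease that cleaves matrix, by 0.82 (SE 0.19).

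**Figure D3:**
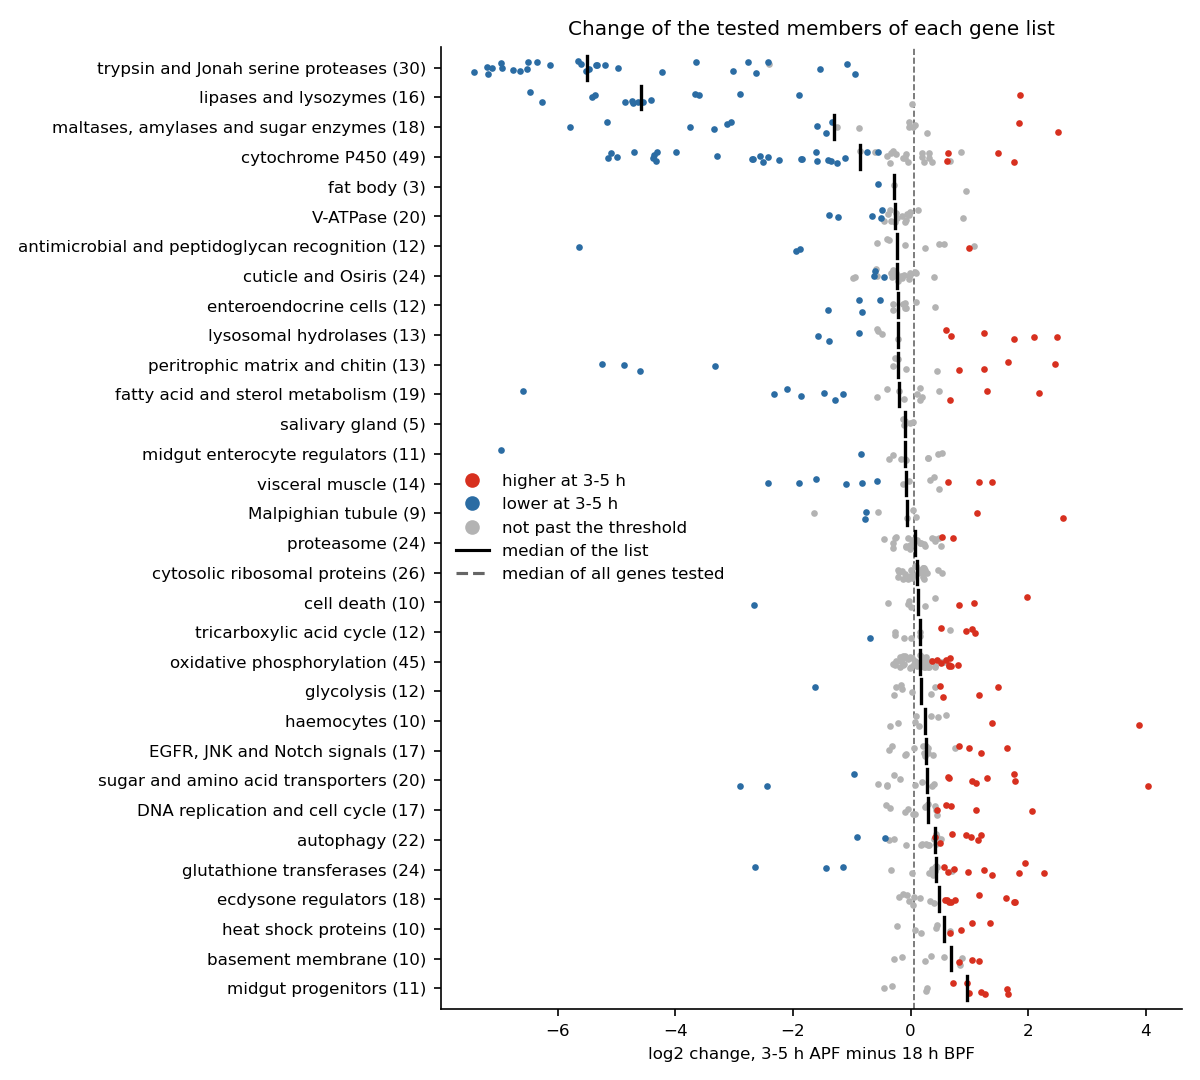
Log2 change, 3 to 5 h APF minus 18 h BPF, of each tested member (points) of the 32 gene lists, with the number tested in brackets, the median of each list (black bar) and the median of all genes tested (dashed line). Members higher in prepupae are red, lower ones blue and those not called grey. Trypsin and Jonah proteases lie at the top with a median of -5.50, and progenitor genes at the bottom with 0.96.

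Genes of central metabolism were called in both directions. Of 45 genes of oxidative phosphorylation 9 rose, near the 17.9% over all named genes tested. None fell, against 10.6% over all, and the median was 0.17. Among those that rose, ND-13A, a subunit of complex I, changed by 0.80 (SE 0.16) and COX4, of complex IV, by 0.68 (SE 0.18). In the tricarboxylic acid cycle 4 of 12 rose, led by Idh3b (1.10, SE 0.17) and Idh3g (1.04, SE 0.21), both subunits of the rate-controlling isocitrate dehydrogenase, and 1 fell. In glycolysis 4 of 12 rose and 1 fell. Tpi, triose phosphate isomerase, rose by 1.49 (SE 0.27), and Pfk, the main control point of the pathway, by 1.17 (SE 0.23). Gpdh1, which draws carbon off glycolysis toward glycerol phosphate, changed by -1.63 (SE 0.28, adjusted p = 3.17e-05). None of 26 cytosolic ribosomal proteins was called, and their changes lay between -0.22 and 0.54. The largest was RpL15 at 0.54 (SE 0.25, adjusted p = 0.109). Proteasome subunits were called in 2 of 24 cases, with a median of 0.08. Heat shock proteins were higher in 4 of 10 cases, with a median of 0.56, and the small chaperone Hsp27 rose by 1.35 (SE 0.30, adjusted p = 7.84e-04), with groups that overlapped at the larval c array.

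Markers of the cell types in the dissected tissue were compared as a check of its make-up. Enterocyte markers were lower for 5 of 7 tested. Those lower, alphaTry, betaTry, Jon65Aiv, Jon99Ci and Mal-A1, encode digestive enzymes of families described above. Their fall therefore repeats that result and is no separate check of make-up. The 5 markers with values on all 12 arrays were alphaTry, betaTry, Jon65Aiv, Mal-A1 and nub, so Jon99Ci, which fell, is left out of their mean. That mean ran from -3.38 to -2.27 in prepupae and from 1.63 to 2.29 in larvae. The 2 enterocyte transcription factors among the 7 were not called. nub had a change of 0.30 (SE 0.23, adjusted p = 0.378) and GATAe one of -0.16 (SE 0.20, adjusted p = 0.636). In a list of 11 enterocyte genes, mostly transcription factors, 2 fell and none rose, with a median of -0.09. Those that fell were alphaTry again and cnc, which changed by -0.84 (SE 0.24, adjusted p = 0.00712). cnc lost the call without the larval b array and with arrays averaged by letter. Visceral muscle markers were lower for 4 of 5. The contractile genes Mlc2, Mp20 and Tm2 changed by -2.42 (SE 0.24), -1.90 (SE 0.30) and -1.60 (SE 0.25). mew, an integrin alpha subunit on the wider muscle list and not specific to muscle, rose by 1.17 (SE 0.29). Msp300, which ties nuclei to the muscle cytoskeleton, rose by 1.39 (SE 0.29), but by 0.647 without the larval a array (adjusted p = 0.0426), and its second probe, at 0.40, was not called. In the wider list of muscle genes 6 of 14 fell and 3 rose. Hormone genes of enteroendocrine cells fell in 4 of 12 cases. CCHa2, a nutrient-sensitive peptide, changed by -1.41 (SE 0.29, adjusted p = 4.16e-04), while pros, the transcription factor that defines these cells, had a change of -0.31 (SE 0.14, adjusted p = 0.121).

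Tissues that could adhere to a dissected gut were checked in the same way. The fat body markers Lsp2 and Fbp1 had changes of -0.29 (SE 0.62) and 0.94 (SE 0.49), not called, in a list where 1 of 3 fell. That gene was Cyp6g2, at -0.55 (SE 0.21, adjusted p = 0.0496), with overlapping groups. Its call was lost under 13 of the 22 other settings described below. None of 5 salivary gland genes was called, and no glue gene was tested. In the Malpighian tubule list 2 of 9 rose and 2 fell. The larger rise was that of ry, xanthine dehydrogenase, at 2.59 (SE 0.32, adjusted p = 1.28e-07), and Irk1, a potassium channel, changed by -0.76 (SE 0.16). Cuticle and Osiris genes, which mark epidermis and trachea, fell in 3 of 24 cases and rose in none. Of these, Osi2 (-0.61, adjusted p = 0.0499) and Cpr47Ef (-0.445, adjusted p = 0.0354) lost the call under 8 and 9 of those settings. Cpr72Ec lost it under 1.

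The stages between and after showed when the change arose. Probes called with a change of at least 2-fold numbered 730 higher (6.51%) and 638 lower (5.69%), or 545 and 507 genes. For each of these genes, the level at another stage was set on the path from 18 h BPF, at 0%, to 3 to 5 h APF, at 100%. At 4 h BPF the median position was 24.7% for genes that rose and 29.1% for genes that fell. It reached 56.2% and 68.4% at puparium formation, and 99.2% and 91.8% at 2 h APF. Most of the difference was therefore in place before 3 h. After 5 h the sets differed. Genes that fell stood at 109% at 6 h APF and 85.0% at 12 h APF, and genes that rose at 91.6% and 66.9%. All of these positions share the 18 h BPF arrays and are given without a test.

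**Figure D4:**
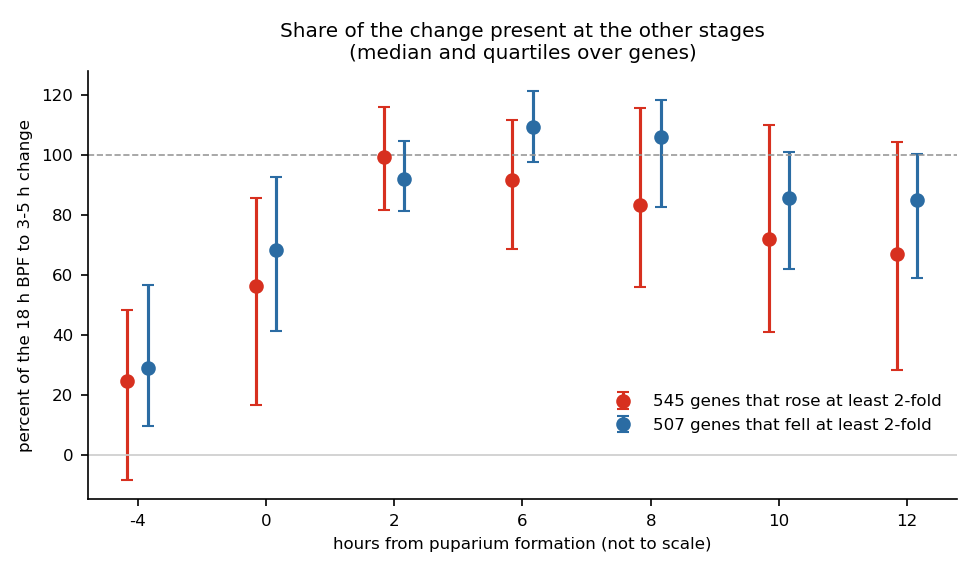
Position of 545 genes that rose and 507 that fell at least 2-fold on the path from their 18 h BPF level (0 percent) to their 3 to 5 h APF level (100 percent), at 7 other stages (horizontal axis, hours from puparium formation). Points are medians and bars quartiles over genes. At 2 h APF the medians are 99.2 for genes that rose and 91.8 for genes that fell.

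Single genes took different routes to the same end. CG6839 averaged 3.39 at 18 h BPF, -0.05 at 4 h BPF and -3.47 at puparium formation, so most of its fall came early. shd stayed at 1.98 at 4 h BPF and stood at -0.29 at puparium formation and -2.81 at 2 h APF. Dronc remained near its larval level at puparium formation, at -1.77, and stood at 0.63 at 2 h APF. CG8329 averaged 1.52 at 3 h APF, within the pooled group, and -2.38 at 12 h APF, below every array of that group. By the rule for genes farthest beyond the prepupal group at 12 h, CG11162 (2.41), Eglp2, a glycerol channel (2.06), and CG11570 (3.26) stood high at 12 h after low levels at 3 to 5 h, and CG14567 (-2.88) and Dtg (-2.71) stood low. Some genes with no call in the comparison changed and returned in between. Of 4604 uncalled genes measured at puparium formation, 72 stood at least 2-fold above both groups there and 70 at least 2-fold below both.

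At the level of lists, the ends of the comparison hid movement in between. Proteasome genes had medians of -0.20 at 18 h BPF, 0.95 at puparium formation and 0.14, -0.09 and -0.16 at 3, 4 and 5 h APF. V-ATPase genes had 0.19 at 18 h BPF, -0.68 at puparium formation and 0.07 at 5 h APF. Glycolysis genes had -0.20 at 18 h BPF and -0.94 at puparium formation, and crossed the larval level between 3 and 4 h APF. Pooling the 3 hours thus averages over lists that were still moving. Trypsin and Jonah genes had medians of 2.40, -0.85 and -3.46 at 18 h BPF, puparium formation and 5 h APF.

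**Figure D5:**
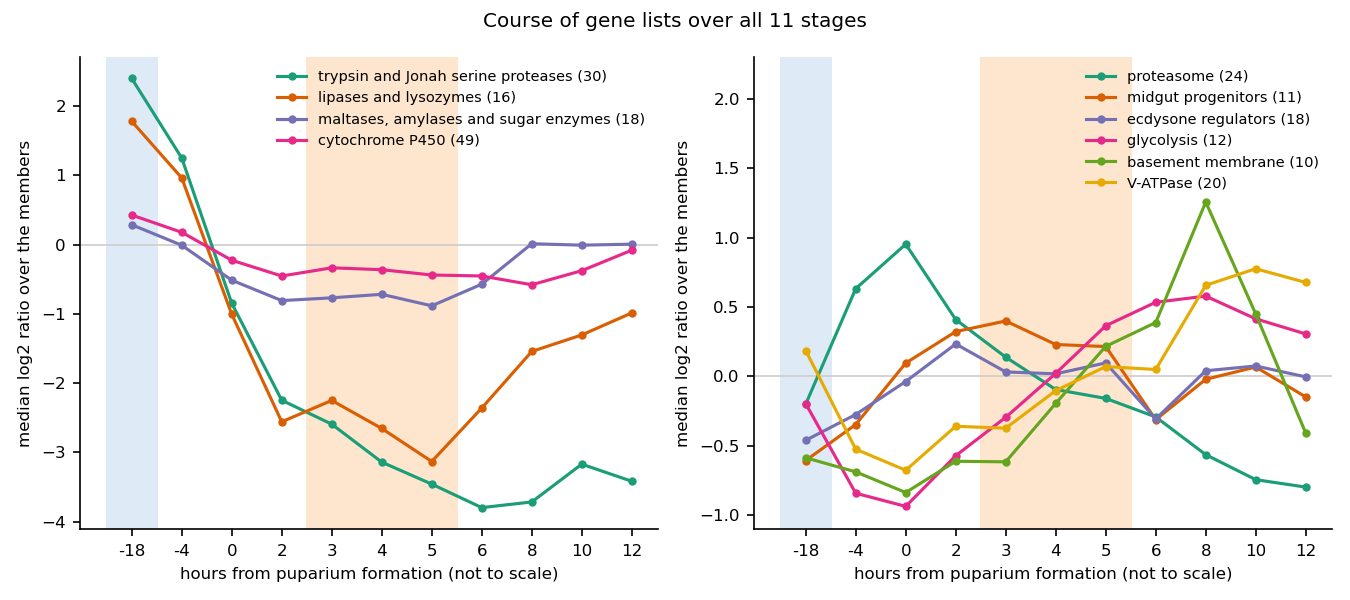
Median log2 ratio over the tested members of 10 gene lists (number of members in brackets) at the 11 stages, with 18 h BPF shaded blue and 3, 4 and 5 h APF shaded orange. Digestive and P450 genes are at the left and other lists at the right. The proteasome median is highest at puparium formation, at 0.95.

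Differences among the 3 pooled hours were called for few probes. Among 10867 probes measured in all of them, 68 differed by the moderated F test (0.626%), or 185 after quantile normalization, and 622 had an unadjusted p under 0.05 (5.72%). Of the 68, 41 were higher at 5 h than at 3 h, 27 were lower, and 66 had the 4 h mean between those of 3 and 5 h. Against 18 h BPF, 32 of the 68 were called. Peritrophin-15b averaged -0.68, -1.91 and -3.27 at 3, 4 and 5 h APF, against 1.38 at 18 h BPF, so its pooled change of -3.33 (SE 0.49) averages a fall still in progress. CG13323 averaged 0.29, -1.08 and -2.12 at the 3 hours, against 0.42 at 18 h BPF. Its pooled change was -1.39 (SE 0.43, adjusted p = 0.0143), and without the larval b array it was -1.35 (adjusted p = 0.0559). Gal went up over the same hours, at -1.04, -0.16 and 0.74, against -2.67 at 18 h BPF. Tested separately against the same larval arrays, 3 h called 2098 of 11755 probes (17.8%), with 10.6% higher and 7.22% lower. At 4 h it was 2194 of 11966 (18.3%), with 11.2% higher and 7.15% lower, and at 5 h 2406 of 11783 (20.4%), with 12.9% higher and 7.49% lower.

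Genes that fell most tended to lie next to each other. Of 177 genes that fell at least 8-fold and had a tested protein-coding neighbour, 88 had an adjacent gene in the same set (49.7%), against 142 of 6723 other genes (2.11%). Among genes that rose at least 2-fold, 76 did (16.3%), against 592 of 6434 other genes (9.20%). The first difference includes gene families in tandem, such as trypsins and Jonah genes, whose copies may share probe signal. These shares were not tested.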

How the data were processed

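Per the labels, midgut RNA was amplified by in vitro transcription, labelled with Cy5 and hybridised against a Cy3 pool of 10 stages. The deposited values are log2 ratios per probe and array. Base 2 and the direction stage over reference were inferred from the values and the make-up of the pool. How the scans were normalized is not stated in the labels, and values were used as deposited. Members and lists were chosen with earlier results of these data known.

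All 33 arrays were fitted in 1 linear model with limma 3.58.1 in R 4.3.3, with 3, 4 and 5 h APF as 1 group, 18 h BPF as baseline and every other stage as its own group. Benjamini-Hochberg adjustment ran over 11210 probes, with a threshold of 0.05. The difference among the 3 hours was tested by the moderated F test. Depth per array is the number of probes with a value. Of 2854 probes not tested, 1858 had too few values at 3 to 5 h APF, 410 at 18 h BPF and 586 in both. Probes were named through the platform annotation and RefSeq gene records (Release 6 plus ISO1 MT, names only): 10824 probes with a value had 1 gene, 227 several and 3009 none listed. A gene is represented by its probe with most values on the 12 arrays. Of 858 genes on 32 lists 541 were tested, and 15 list names were not resolved.

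Genes were named by rule: the 12 largest rises and falls among called genes with groups that do not overlap, for each list at most 3 called members that rose and 3 that fell (where none was called, the member with the largest change), a set of regulators where tested, the 3 called genes that differed most among the hours, and the 3 farthest above and below the prepupal group at 12 h. Marker genes were listed by cell type, and other list members are given as counts. The fit was tested on simulated data. Simulated log2 changes of 0.5, 1 and 2 were recovered in 17.9%, 76.1% and 98.5% of cases, so small changes can go uncalled. Noise was drawn independently for each array, so shared deviation of arrays of 1 letter was not simulated. Arrays of the same letter in the larval and prepupal groups did not deviate together (correlations of -0.152 to 0.038), so letters were not treated as pairs. Within the prepupal group, the 3, 4 and 5 h arrays of the same letter did deviate together. Their correlations were 0.187 to 0.242 for a, 0.128 to 0.421 for b and 0.085 to 0.435 for c. The main fit counted the prepupal arrays as separate replicates, so its errors and p-values may be too small. Sequences were not used here. Python 3.11.15 with Matplotlib 3.10.9 drew the figures.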

Additional observations from a re-analysis of the deposited data

Results flagged for a closer look

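Among 152 named genes, 7 had 1 prepupal array of 9 that stood apart from the others by Dixon's test, and chance alone gives about 1 in 20. CG7290 read -3.20 on the 3 h c array, where the nearest other array read -4.14, and mag read -2.15 on the same array, where the nearest read -3.49. CAH1 read -1.34 on the 3 h a array, with the nearest at -0.61. ftz-f1 read -1.33 and RnrL -0.21 on the 3 h b array, with the nearest at -0.56 and 0.21. tobi read 1.01 and GstD1 1.03 on the 5 h c array, with the nearest at -0.07 and 0.54. None of the 7 was on a 4 h array. Of these genes, CAH1 is a carbonic anhydrase of the Malpighian tubule list, with a change of -0.78 (SE 0.22).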

How the results depend on the processing

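The count of 3020 called probes, 1914 higher and 1106 lower, was recomputed under 22 other settings, each alone. It came to 1866 among the 4483 probes measured on all 12 arrays, with 582 lower. With the letters b and c alone in both groups it was 1983 of 10207 probes tested, with 1250 higher and 733 lower. Leaving out 1 array at a time gave 2151 to 2900 calls, 1330 to 1857 higher and 793 to 1051 lower. Fewer probes then had enough values to be tested, so these counts are not directly comparable with 3020 of 11210. The lowest was 2151 of 7768 probes, without the larval c array, and the highest 2900 of 10565, without the 3 h a array. Averaging the 3, 4 and 5 h arrays of a letter, a setting chosen after seeing the data, gave 2061 calls, of which 1252 were higher and 809 lower. With the letter as a replicate block 2053 were higher and 1180 lower; 9 of 12 arrays correlated best with an array of their own letter. Centring each array gave 1664 higher and 1231 lower, and quantile normalization 1770 and 1199. The 68 probes that differed among the 3 hours became 185 under quantile normalization. Of 144 called genes that are named by rule, 116 kept the call in every setting in which they were tested and 28 lost it in at least 1. Of genes described above, Cyp6g2, Osi2 and Cpr47Ef lost it both with the letters b and c alone and with averaging by letter. cnc lost it with averaging by letter. With the letters b and c alone Eip93F (1.05, adjusted p = 0.154), Hr39 (0.638, adjusted p = 0.124), Msp300 (0.598) and COX4 (0.597, adjusted p = 0.0615) also lost it. With averaging by letter Hr3 (1.17, adjusted p = 0.0733), Egfr (1.18, adjusted p = 0.0571), esg (0.716, adjusted p = 0.109) and Hr39 (0.655, adjusted p = 0.118) did. With centred arrays Hr39 (0.610, adjusted p = 0.0508) did, and with quantile normalization CG11570 (-0.720, adjusted p = 0.197). Only ftz-f1, which was not called, changed sign, from 0.04 to -0.0025 with centred arrays, -0.067 with quantile normalization, and -0.0123 without the 5 h c array. Over all arrays left out in turn it ranged from -0.157, without the larval b array, to 0.172, without the larval a array, and the cause was not tested.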

Other observations

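Within the prepupal group a few genes crossed their larval level between 3 and 5 h APF, and a pooled mean does not show the crossing. The examples here were chosen after their values were seen, among the 68 probes that differed among the hours. NimC4, a receptor with which phagocytes engulf dying cells, averaged -2.93, -0.94 and 0.33 at 3, 4 and 5 h APF, against -2.38 at 18 h BPF (adjusted p of the F test among the hours 0.00266). SPARC, a collagen-binding matrix protein, averaged -2.40, -1.47 and -0.37, against -2.27 at 18 h BPF (adjusted p = 0.00246). Glys, glycogen synthase, averaged -1.27, -0.35 and 0.41, against -0.85 at 18 h BPF (adjusted p = 7.86e-04). Rab32, a small GTPase of lysosome-related organelles, averaged -0.99, -0.33 and 0.48, against -0.30 at 18 h BPF (adjusted p = 7.86e-04). At 6 h APF these 4 genes stood at 1.29, 0.42, 0.70 and 0.42, each above its 5 h mean except Rab32.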
